A study of Mus musculus with 6 samples.

Results

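The interferon regulatory factors (IRFs) are transcription factors that share a helix-turn-helix DNA-binding domain and recognise GAAA repeats in the control regions of interferon and immune genes. The genes described here are Irf1, Irf2, Irf3, Irf4, Irf5, Irf7, Irf8 and Irf9, 8 of the 35122 genes in the deposited table. They were chosen by symbol, and each symbol matched a single Ensembl identifier. RNA came from the adipocyte layer that floats up after collagenase digestion of epididymal fat, taken from male C57BL/6 mice on standard chow, labelled 10 to 11 months old, although the text of the study gives an older age. The control group consisted of 3 PU.1 fl/fl mice, in which loxP sites flank 1 exon of Spi1, the gene of the ETS factor PU.1, and no Cre is present. The aPU.1KO group consisted of 3 AdipoqCre PU.1 fl/fl mice, which carry the same floxed alleles together with Cre driven by the adiponectin promoter. Deletion was thus aimed at adipocytes, and recombination in any cell of the fraction was not measured here. The mice were littermates, 1 library was made per mouse, and mice are numbered 1 to 3 within each group.

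IRF proteins sit at both ends of the interferon system. IRF3, IRF5 and IRF7 are held in the cytoplasm until pattern recognition receptors trigger their phosphorylation, after which they enter the nucleus and switch on interferon and cytokine genes. IRF9 belongs to the complex that answers type I interferon, IRF1 is itself induced by interferons and activates antigen presentation genes, and IRF2 competes with IRF1 for the same sites. IRF4 and IRF8 bind DNA weakly alone and pair with PU.1 at composite elements that join an ETS site to an IRF site, chiefly in myeloid and B cells. In fat, IRF4 is also known as a fasting-induced activator of lipolysis genes in adipocytes, and IRF5 as a factor of inflammatory adipose tissue macrophages.

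The 8 genes had no common direction, with 4 fitted lower and 4 higher in aPU.1KO mice. Irf5 and Irf8 had the lowest levels relative to controls in aPU.1KO mice, with log2 fold changes (aPU.1KO over control) of -2.61 and -0.82, and for both genes the 2 groups did not overlap. Irf3 was slightly higher in all 3 aPU.1KO mice, with a log2 fold change of 0.28. Irf1 ranged widely among the aPU.1KO mice, and Irf2, Irf4, Irf7 and Irf9 overlapped between the groups. The quasi-likelihood test of edgeR called 0 of the 8 genes at an adjusted p under 0.05, where it called 33 of all 13925 genes tested (0.237%, made up of 0.18% lower and 0.0575% higher). At a nominal p under 0.05, that is before adjustment for multiple tests, the same test had Irf5 and Irf8 lower and Irf3 higher, 3 of 8, against 25.7% of all genes tested (13.7% lower and 11.9% higher). DESeq2, the test named in the methods of the study, called 2 of the 8 lower at an adjusted p under 0.05 (Irf5 and Irf8) and 0 higher, against 11.6% of the 16100 genes it tested (7.87% lower and 3.73% higher). The limma-voom test called 0 of 8 after adjustment and had the same 3 genes at a nominal p under 0.05. When control mouse 2 was left out, Irf5 and Irf8 passed in edgeR, 2 of the 8 and both lower, against 8.34% of all genes (6.93% lower). The number nominally higher was 0 when control mouse 1 was left out and 3 when aPU.1KO mouse 3 was. The groups did not overlap for 2 genes that were lower and 1 that was higher, and over all genes tested 32.1% did not overlap, 15.5% lower and 16.7% higher.

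**Figure D1:**
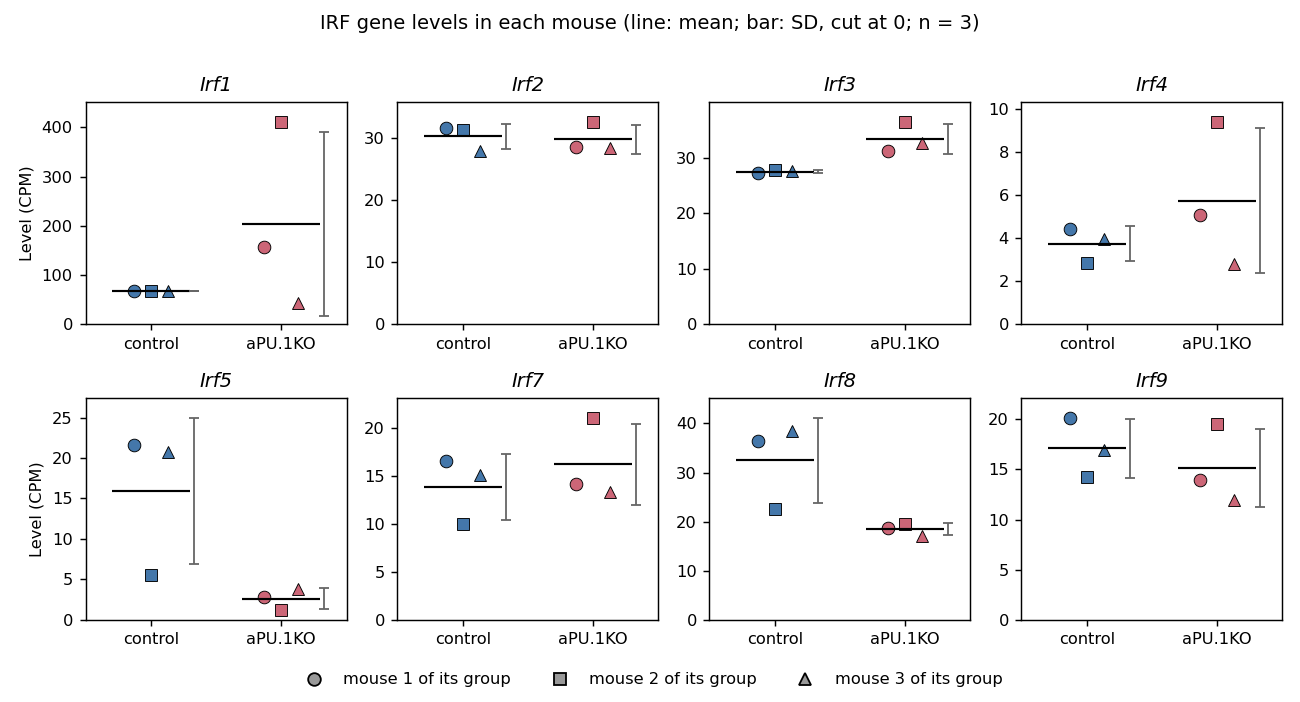
Level of each IRF gene in CPM (counts scaled to library size with TMM factors) in each of the 3 control and 3 aPU.1KO mice. Each panel starts at 0, a horizontal line marks the group mean and the bar beside it the SD. Irf5 and Irf8 were lower in the 3 aPU.1KO mice than in any control mouse, Irf3 was higher in all 3, and Irf1 spread from 43.9 to 410 CPM among the aPU.1KO mice.

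The libraries held 22770714 to 69283842 counts in control mice and 20550252 to 24310144 in aPU.1KO mice, and no library repeated another. Levels are given in CPM, counts scaled to the size of each library. Spi1 was measured as 24.3, 6.35 and 26.7 CPM in control mice 1, 2 and 3 and as 3.20, 1.22 and 4.17 CPM in aPU.1KO mice 1, 2 and 3. Spi1 was thus lower in every aPU.1KO mouse and control mouse 2 stood below the other controls, with a log2 fold change of -2.75 (SE 0.64, edgeR adjusted p = 0.0788, DESeq2 adjusted p = 7.38e-05). Counts were taken over whole genes, so Spi1 reads outside the floxed exon were counted in both groups. The adipocyte label was met by its markers: 7 markers including Adipoq and Plin1 summed to 14138 to 15976 CPM in controls and to 16827 to 20907 CPM in aPU.1KO mice. The 13 macrophage markers, led by Lyz2 and none of them absent, summed to 494 to 1534 CPM in controls and to 268 to 344 CPM in aPU.1KO mice. In such bulk RNA, fewer cells of a type and less RNA per cell cannot be told apart.

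To place the IRF genes beside the DNA elements that they and PU.1 are known to use, the 250 bases before each RefSeq start site were searched on both strands for 4 short motifs. All 8 genes matched the RefSeq promoter table of mouse build GRCm38.p6. The composite element (GGAA, 2 bases of any kind, GAAA), the type of site that PU.1 and IRF4 or IRF8 share, lay upstream of 1 of the 8 genes (Irf2) and of 2.68% of all 27025 genes. The interferon-stimulated response element core (GAAA, 2 bases of any kind, GAAA) was also found in 1 of the 8 (Irf2, where it overlaps the composite match) and in 3.46% of all genes. The gamma-activated sequence TTCNNNGAA, an element of interferon gamma responses, lay upstream of Irf1, Irf2 and Irf8, 3 of the 8, against 8.13% of all genes. The PU.1 core GAGGAAGT was upstream of none of the 8 genes at any of their start sites and of 2.79% of all genes, which says only that these letters are not in these windows. The windows of Irf1 (chr11:53769764-53770013), Irf2 (chr8:46739495-46739744), Irf5 (chr6:29526375-29526624) and Irf8 (chr8:120736108-120736357) are printed here, all on the plus strand and at the first start site of each gene, because Irf1, Irf2 and Irf8 hold the matches and Irf5, which differed most between the groups, holds none. The window of Irf2 ends just inside the GENCODE gene, whose annotated start lies before that of RefSeq. Capitals mark the matches.
Irf1: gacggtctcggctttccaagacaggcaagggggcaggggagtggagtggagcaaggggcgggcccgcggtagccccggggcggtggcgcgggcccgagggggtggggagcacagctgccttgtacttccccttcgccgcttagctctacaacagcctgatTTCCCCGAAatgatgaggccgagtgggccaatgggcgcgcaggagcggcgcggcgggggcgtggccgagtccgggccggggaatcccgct
Irf2: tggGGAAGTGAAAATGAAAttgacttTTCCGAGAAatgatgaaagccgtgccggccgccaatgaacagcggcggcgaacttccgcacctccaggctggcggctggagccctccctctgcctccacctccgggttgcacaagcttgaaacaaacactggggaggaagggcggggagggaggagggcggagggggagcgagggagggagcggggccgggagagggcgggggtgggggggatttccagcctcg
Irf5: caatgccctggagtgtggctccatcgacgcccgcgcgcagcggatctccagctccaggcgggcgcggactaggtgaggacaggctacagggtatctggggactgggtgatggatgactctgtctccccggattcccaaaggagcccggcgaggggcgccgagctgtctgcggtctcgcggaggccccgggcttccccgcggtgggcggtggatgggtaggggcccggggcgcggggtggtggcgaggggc
Irf8: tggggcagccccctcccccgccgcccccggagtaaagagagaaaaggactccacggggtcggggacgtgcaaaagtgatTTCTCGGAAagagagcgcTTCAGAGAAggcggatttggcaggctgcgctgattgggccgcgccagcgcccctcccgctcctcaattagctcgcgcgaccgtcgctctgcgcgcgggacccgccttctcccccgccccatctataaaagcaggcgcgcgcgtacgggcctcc
In Irf1 the match TTCCCCGAA lay 90 to 82 bases before the start site. In Irf8 there were 2 such matches, TTCTCGGAA at 171 to 163 and TTCAGAGAA at 153 to 145 bases before the start. In Irf2 the composite match GGAAGTGAAA began 247 bases before the start, and TTCCGAGAA followed at 224 to 216. These are matches of letters and no binding was measured here.

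Irf8 (ENSMUSG00000041515, chr8:120736358-120756694, plus strand) encodes the PU.1 partner that directs monocyte and dendritic cell development. Its level was 36.5, 22.5 and 38.4 CPM in control mice 1, 2 and 3 and 18.7, 19.6 and 17.1 CPM in aPU.1KO mice 1, 2 and 3. The aPU.1KO values were close to each other and below all controls, of which mouse 2 was nearest to them. The means were 32.5 ± 8.68 CPM in controls and 18.4 ± 1.25 CPM in aPU.1KO mice (SD, n = 3 each), a 1.76-fold lower fitted level in aPU.1KO mice. On the log2 scale this was -0.82 (SE 0.20, 95% interval -1.30 to -0.33, edgeR adjusted p = 0.0865, DESeq2 adjusted p = 0.00510). Leaving out control mouse 2 gave an edgeR adjusted p of 0.00496, and leaving out control mouse 1 gave 0.338, while the log2 fold change stayed between -1.03 and -0.69 whichever mouse was left out.

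Irf4 (ENSMUSG00000021356, chr13:30749226-30766976, plus strand) encodes the other PU.1 partner, which acts in lymphocytes, in alternatively activated macrophages and in the fasting response of adipocytes. It was the least abundant IRF gene per length in controls, at 4.45, 2.85 and 3.97 CPM, and measured 5.08, 9.40 and 2.79 CPM in aPU.1KO mice. The aPU.1KO group held both the highest and the lowest of the 6 values, and the groups overlapped. Its log2 fold change was 0.61 (SE 0.43, 95% interval -0.41 to 1.63, adjusted p = 0.410 by edgeR). Without aPU.1KO mouse 2 the log2 fold change was 0.053, and when aPU.1KO mouse 3 was left out it was 0.94 (edgeR adjusted p = 0.146).

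Irf5 (ENSMUSG00000029771, chr6:29526625-29541871, plus strand) encodes the factor that acts below Toll-like receptors and MyD88 to induce inflammatory cytokines. Its level was 21.6, 5.56 and 20.7 CPM in control mice 1, 2 and 3 and 2.80, 1.27 and 3.84 CPM in aPU.1KO mice 1, 2 and 3. Control mouse 2 lay much closer to the aPU.1KO mice than to the other controls, yet the groups did not overlap. Group means were 16.0 ± 9.01 and 2.63 ± 1.29 CPM (SD, n = 3 each), and the fitted level was 6.10-fold lower in aPU.1KO mice. These aPU.1KO values rested on 55, 28 and 81 counts in mice 1, 2 and 3. As a log2 fold change this was -2.61 (SE 0.60, 95% interval -4.04 to -1.18, edgeR adjusted p = 0.0786, DESeq2 adjusted p = 9.73e-05). By edgeR the adjusted p was 0.0110 without control mouse 2 and 0.313 without control mouse 1. Whichever mouse was left out, the difference stayed between -3.02 and -2.28 on the log2 scale. Irf5 shares 411 bases, 14.2% of its exon bases, with exons of Tnpo3 on the opposite strand. Strandedness of the libraries was not given in the sources used here, so reads in that stretch cannot be told apart. Tnpo3 was at 134 ± 11.3 CPM in controls and 139 ± 3.79 CPM in aPU.1KO mice (SD, n = 3 each).

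Irf3 (ENSMUSG00000003184, chr7:44997648-45002848, plus strand) encodes the factor that TBK1 activates after viral or cytosolic nucleic acid sensing. The control mice measured 27.2, 27.7 and 27.5 CPM and the aPU.1KO mice 31.2, 36.3 and 32.5 CPM. All 3 aPU.1KO mice lay above the controls, which differed from each other by less than any of them differed from an aPU.1KO mouse. Their log2 fold change over controls was 0.28 (SE 0.09, 95% interval 0.08 to 0.49, edgeR adjusted p = 0.113, DESeq2 adjusted p = 0.0939). Over the 15 alternatives tried it stayed between 0.21 and 0.32 without passing the threshold.

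Irf7 (ENSMUSG00000025498, chr7:141262706-141266481, minus strand) encodes the amplifier of type I interferon, which interferon itself induces. It measured 16.6, 9.98 and 15.0 CPM in controls and 14.2, 21.0 and 13.4 CPM in aPU.1KO mice. The highest value was an aPU.1KO mouse and the lowest a control mouse, with the other 4 between them. The log2 fold change was 0.22 (SE 0.25, 95% interval -0.37 to 0.81, adjusted p = 0.612 by edgeR), and without aPU.1KO mouse 2 it was -0.02.

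Irf1 (ENSMUSG00000018899, chr11:53770014-53778374, plus strand), the gene whose window holds a gamma-activated sequence above, was the most abundant IRF gene per length in both groups. The control mice were nearly alike, at 67.0, 67.3 and 66.7 CPM, whereas the aPU.1KO mice measured 157, 410 and 43.9 CPM. Mice 1 and 2 lay above the controls, mouse 2 by far, and mouse 3 lay below them. The fitted log2 fold change was 1.60 with a wide interval (SE 0.69, 95% interval -0.03 to 3.24, edgeR adjusted p = 0.201, DESeq2 adjusted p = 0.215). It was 0.58 without aPU.1KO mouse 2 and 2.08 without aPU.1KO mouse 3.

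Irf2 (ENSMUSG00000031627, chr8:46739732-46847458, plus strand), whose product opposes IRF1 at shared sites, differed least between the groups of all 8. Its level was 31.6, 31.4 and 28.0 CPM in controls and 28.7, 32.6 and 28.4 CPM in aPU.1KO mice. The groups overlapped almost fully. Its log2 fold change was -0.02 (SE 0.10, edgeR adjusted p = 0.908), and the 95% interval of the difference ran from -0.25 to 0.21.

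Irf9 (ENSMUSG00000002325, chr14:55603571-55610030, plus strand), the DNA-binding subunit of the type I interferon complex, measured 20.1, 14.3 and 16.9 CPM in controls and 14.0, 19.5 and 12.0 CPM in aPU.1KO mice. Mice 1 and 3 of the aPU.1KO group lay just below the controls and mouse 2 lay among them. Its log2 fold change was -0.18 (SE 0.21, 95% interval -0.68 to 0.32, adjusted p = 0.630 by edgeR). It was -0.41 without aPU.1KO mouse 2 and -0.03 without aPU.1KO mouse 3.

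**Figure D2:**
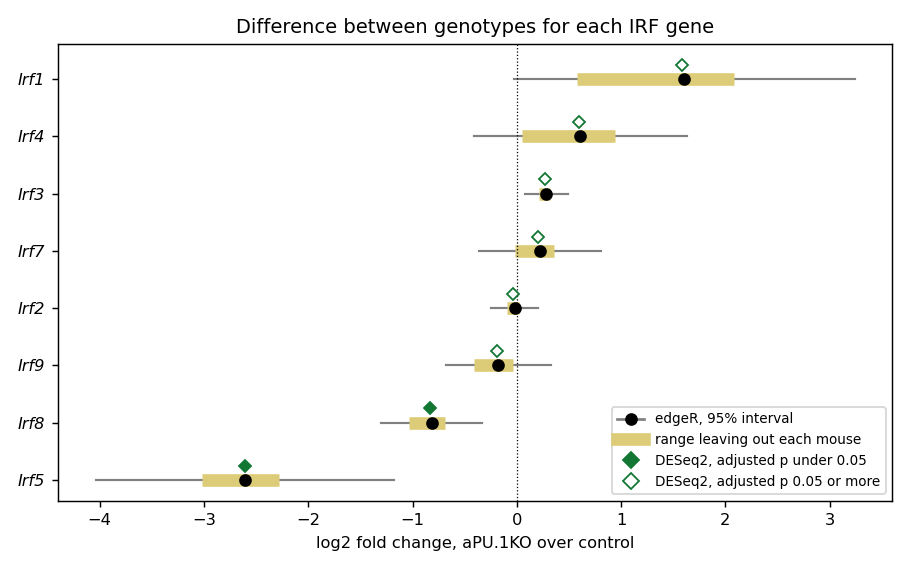
Log2 fold change of each IRF gene, aPU.1KO over control, ordered by size. Black points and grey lines are edgeR estimates with 95% intervals, yellow bars the range when each mouse is left out in turn, and green diamonds the DESeq2 estimate, filled where its adjusted p was under 0.05. Irf5 and Irf8 lie below 0 with filled diamonds, and the yellow bar of Irf1 runs from 0.58 to 2.08.

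A single aPU.1KO mouse stood highest of its group for most of the family. Mouse 2 had the highest level of the aPU.1KO group for 7 of the 8 IRF genes and the lowest for the other, Irf5. Over all genes tested, this mouse was highest of its group for 40.4% and lowest for 37%. Mouse 3 was lowest of the group for 6 of the 8, against 31.7% of all genes. Among controls, mouse 1 was highest for 5 of the 8, against 21.3% of all genes, and mouse 2 was lowest for 5 of the 8 (Irf4, Irf5, Irf7, Irf8 and Irf9), against 43.7% of all genes. The members are counted in the same libraries and are not independent of each other.

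Compared per kilobase of exon, the control order ran from Irf1 (16.9 ± 0.0833 CPM per kb, SD, n = 3) through Irf3 (7.98 ± 0.0741), Irf5 (5.49 ± 3.10), Irf8 (4.60 ± 1.23), Irf2 (4.10 ± 0.277), Irf7 (3.67 ± 0.911) and Irf9 (3.17 ± 0.545) to Irf4 (0.765 ± 0.168). Irf1 and Irf3 were each separated from the next gene in every control mouse, and Irf4 was separated from Irf9. Each neighbouring pair from Irf5 to Irf9 overlapped over the 3 mice, so the order of neighbours within that stretch is not resolved. Irf2 (3.78 to 4.28 CPM per kb in controls) did lie above Irf9 (2.65 to 3.74) without overlap. In aPU.1KO mice Irf1 (51.2 ± 47.2 CPM per kb) and Irf3 (9.69 ± 0.774) again led, and Irf5 came last at 0.906 ± 0.445, overlapping Irf4 (1.17 ± 0.684).

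**Figure D3:**
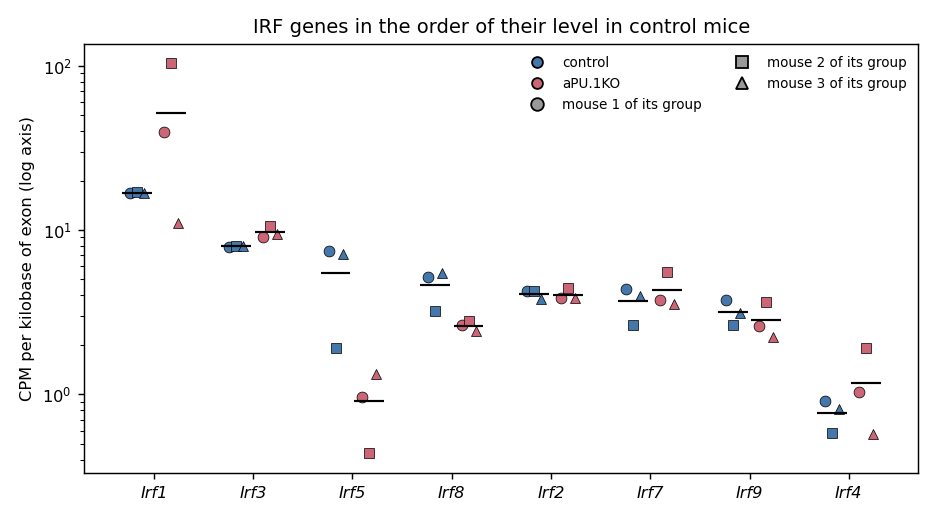
Level of each IRF gene per kilobase of exon, on a log axis, in control (blue) and aPU.1KO (red) mice, with genes ordered by their control mean. Black lines are group means. Irf5 moves from the third place in controls to the last in aPU.1KO mice, while Irf1 and Irf3 keep the first places in both groups.

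Because macrophages express Irf5, Irf8 and Spi1, the genes were set beside the macrophage marker sum of each library. That sum was 1534, 494 and 1474 CPM in control mice 1, 2 and 3 and 344, 268 and 326 CPM in aPU.1KO mice. As for Irf5, control mouse 2 was far below the other controls and aPU.1KO mouse 2 was lowest of all. By edgeR, 11 of the 13 markers were lower at a nominal p under 0.05, of which 1 (Mrc1) also passed after adjustment, beside 13.7% and 0.18% of all genes, and the median log2 fold change of the list was -2.01. DESeq2 called 11 of the 13 lower, beside 7.87% of all genes. Mertk and Cd163 were the 2 that did not pass, with log2 fold changes of 0.06 and 0.29.

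Per 1000 CPM of macrophage markers, Irf5 measured 14.0, 11.2 and 14.1 CPM in control mice and 8.12, 4.72 and 11.8 CPM in aPU.1KO mice. On this scale the groups overlapped, and the aPU.1KO mean was 0.625 times the control mean. Spi1 gave 15.8, 12.8 and 18.1 against 9.30, 4.55 and 12.8, a ratio of means of 0.568, and overlapped once Lyz2 was dropped from the list. For Irf8 the values were 23.8, 45.5 and 26.1 in controls and 54.2, 72.9 and 52.4 in aPU.1KO mice. All 3 aPU.1KO mice then lay above the controls, a ratio of means of 1.88 in the opposite direction to its CPM level. This came from dividing by a marker sum that differed more between the groups than Irf8 did. The ratio was smaller than the 2.83 of Irf2, whose CPM hardly differed (log2 fold change -0.02). Irf2, Irf3, Irf4, Irf7 and Irf9 were likewise higher per macrophage marker in every aPU.1KO mouse, by ratios of 2.80 to 5.14. The marker sum was itself lower in aPU.1KO mice, so a gene of unchanged CPM rises on this scale. The share of all genes that do so was not counted, and these ratios are no result about the IRF genes. Irf1 overlapped, and without Lyz2 it too was higher in every aPU.1KO mouse. Dendritic cells also express Irf8, and 6 of their markers summed to 17.2 to 20.8 CPM in controls and 13.8 to 18.4 CPM in aPU.1KO mice. Most of that sum was Zbtb46, which endothelial cells also express and which had a log2 fold change of -0.06. The other 5 markers summed to 3.18, 3.46 and 2.66 CPM in controls and 0.966, 2.12 and 1.75 CPM in aPU.1KO mice, without overlap. Of these 5, Ccr7 did not overlap between the groups, with a log2 fold change of -2.36 (edgeR adjusted p = 0.0722, DESeq2 adjusted p = 0.0248), whereas Clec9a (-1.29) and Cd209a (-0.51) overlapped. Flt3, which did not overlap either, and Xcr1 were too low for edgeR to test and had DESeq2 adjusted p values of 0.198 and 0.750, Xcr1 with means of 0.126 CPM in controls and 0.218 CPM in aPU.1KO mice. The part of macrophage and dendritic cell RNA in the lower levels of Irf5 and Irf8 was not tested.

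**Figure D4:**
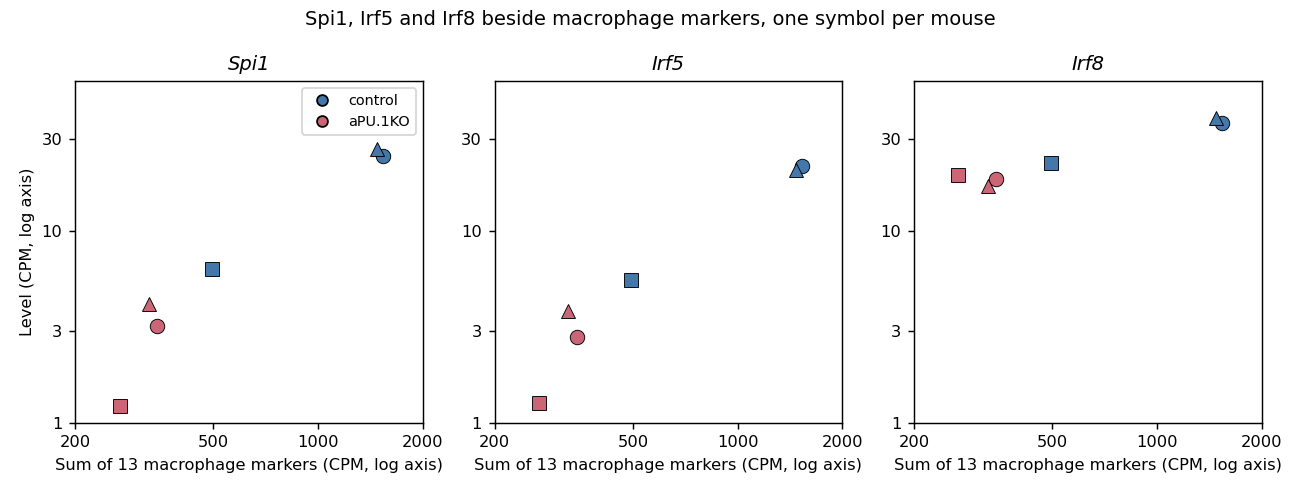
Level of Spi1, Irf5 and Irf8 in CPM against the summed CPM of 13 macrophage markers, both on log axes, with a symbol per mouse (circle mouse 1, square mouse 2, triangle mouse 3; blue control, red aPU.1KO). Irf5 and Spi1 run steeply with the marker sum, Spi1 from 1.22 to 26.7 CPM, while Irf8 stays between 17.1 and 38.4 CPM.

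Genes whose level over the 6 libraries was most like that of Irf5 and Irf8 were ranked by the root mean square difference of centred log2 CPM, among 11896 genes. Nearest to Irf5 were Arhgap9 (0.0823), B4galnt1 (0.0886), Anpep (0.0935), Msr1 (0.106) and Capg (0.107). Msr1 encodes a macrophage scavenger receptor, and its CPM of 20.8, 5.95 and 22.2 in controls and 2.49, 1.13 and 3.65 in aPU.1KO mice ran close to those of Irf5. The difference between Irf5 and Spi1 was 0.122, the smallest between Spi1 and any IRF gene, whereas Irf5 and Irf8 were 1.07 apart. Nearest to Irf8 were Samhd1 (0.0569), Tuba1c (0.0916) and Shisa6 (0.0945). Samhd1, which encodes a nucleotide hydrolase that restricts viruses, measured 78.6, 49.4 and 77.3 CPM in controls and 39.9, 42.0 and 39.4 CPM in aPU.1KO mice. Within the family, Irf2 and Irf3 had the smallest difference, 0.162. Both varied little over the 6 libraries, and this measure is small for any such genes. Irf3 separated the groups and Irf2 did not.

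The genes around the IRF proteins were described from 9 lists, of which 96 of 109 genes were abundant enough to test with edgeR. None of the 96 passed after adjustment by edgeR or limma-voom. Before adjustment, 33 had a nominal p under 0.05 and were lower and 4 were higher, against 13.7% of all genes lower and 11.9% higher. DESeq2 called 20 genes of the lists lower, Spi1 among them and Batf, which edgeR did not test, and 2 higher, beside its 7.87% lower and 3.73% higher of all genes. Without control mouse 2, edgeR called 21 lower and none higher, beside 6.93% of all genes lower in that fit. The median log2 fold change of the 96 was -0.31, against 0.014 for all genes tested.

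The upstream signals differed by list. No interferon ligand could be tested: the highest count of any of the 10 in any library was 6, for Ifng. All 11 interferon receptors and signal transducers had log2 fold changes below 0, with a median of -0.25, where 6683 of all 13925 genes tested were below 0. Of the 11, 2 were lower at a nominal p under 0.05, against 13.7% of all genes. These were the receptor chain Ifnar1 (-0.28, edgeR adjusted p = 0.102, DESeq2 adjusted p = 0.0414) and the kinase Jak1 (-0.26, edgeR adjusted p = 0.187, DESeq2 adjusted p = 0.159). With a mouse left out, the count ran from 1 (without control mouse 1 or 3) to 5 (without control mouse 2). Of 23 sensors, adaptors and kinases that activate IRF3, IRF5 and IRF7, 9 were lower and 1 higher at a nominal p under 0.05, beside 13.7% and 11.9% of all genes, with a median of -0.34, and without control mouse 1 these counts were 6 and 0. The endosomal RNA sensor Tlr7 measured 13.9, 3.46 and 10.9 CPM in controls and 2.08, 1.31 and 1.89 CPM in aPU.1KO mice, a log2 fold change of -2.43 (edgeR adjusted p = 0.0775, DESeq2 adjusted p = 6.72e-05). Unc93b1, which carries such receptors to the endosome, and the TLR4 adaptor Ticam2 had log2 fold changes of -1.23 and -1.70 and were also called lower by DESeq2. As for the macrophage marker sum, control mouse 2 lay below the other controls for all 3 of these genes, and the part of macrophage RNA in their levels was not tested.

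Among 10 tested DNA-binding partners and corepressors of IRF proteins, 5 were lower at a nominal p under 0.05 and none higher, with a median of -0.69, beside 13.7% of all genes lower. The count was 2 without control mouse 1, 3 without control mouse 3 and 2 among genes with at least 10 counts in every library. Besides Spi1, these included the lymphoid factor Ikzf1 (-0.66, edgeR adjusted p = 0.0909, DESeq2 adjusted p = 0.0130) and the AP-1 partner Batf3 (-1.32, edgeR adjusted p = 0.106). Of 7 negative regulators, 1 (Trim21, -0.30) was nominally lower, a share like that of all genes, and the median was -0.0012. Trim21 lost this without control mouse 1, control mouse 3, aPU.1KO mouse 2 or aPU.1KO mouse 3, with no filter on low counts and with control library 1 thinned, and 2 genes of the list were nominally higher without aPU.1KO mouse 3. Usp18, which removes ISG15 and dampens the type I receptor, had a log2 fold change of -0.32. Socs1, the inhibitor of JAK kinases, measured 2.13, 2.10 and 1.90 CPM in controls and 4.01, 5.29 and 1.28 CPM in aPU.1KO mice. As for Irf1, aPU.1KO mice 1 and 2 lay above the controls and mouse 3 below them.

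Targets of the IRF proteins were described in 4 lists. The 24 type I interferon-stimulated genes had a median log2 fold change of -0.49, 23 of them below 0, where 6683 of all 13925 genes tested were. At a nominal p under 0.05, 10 were lower and none higher, and DESeq2 called 5 lower. All genes gave 13.7% lower and 7.87% lower in these tests. The 10 became 3 without control mouse 1, 5 without control mouse 3, 5 without aPU.1KO mouse 1 and 4 without aPU.1KO mouse 3. The smallest p values in the list belonged to Oas3, Oasl1 and Oasl2, of the oligoadenylate synthetase family. Oas3 measured 3.10, 1.53 and 1.55 CPM in controls and 0.559, 0.542 and 0.521 CPM in aPU.1KO mice, a log2 fold change of -1.95 (edgeR adjusted p = 0.0760, DESeq2 adjusted p = 0.00188). Oasl1 and Oasl2 had log2 fold changes of -1.53 and -1.33. Irf7 and Irf9, whose products act on this list, overlapped between the groups. The macrophage markers were lower alongside, with a median log2 fold change of -2.01, and their part in this list was not tested.

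The 15 targets of IRF1 and interferon gamma had a median of -0.23, with 3 lower and 1 higher at a nominal p under 0.05, beside 13.7% and 11.9% of all genes. The count lower was 1 without control mouse 1, control mouse 3 or aPU.1KO mouse 3 and 8 without control mouse 2, and the count higher was 0 unless aPU.1KO mouse 3 was the mouse left out. The class II transactivator Ciita measured 10.9, 4.03 and 11.9 CPM in controls and 2.69, 1.58 and 2.04 CPM in aPU.1KO mice (log2 fold change -2.09, edgeR adjusted p = 0.0768, DESeq2 adjusted p = 0.000111). The gene nominally higher was the chemokine Cxcl10, at 8.76, 8.01 and 7.69 CPM in controls and 33.2, 139 and 2.65 CPM in aPU.1KO mice (log2 fold change 2.84, edgeR adjusted p = 0.174). Its groups overlapped, and its aPU.1KO mice stood in the same order as for Irf1, with mouse 2 highest and mouse 3 below every control. Cxcl9, Gbp3, Gbp5, Gbp7 and Tap2 of this list likewise had mouse 2 highest of the aPU.1KO group and mouse 3 below every control. The remaining members did not meet both. Among these, the guanylate-binding protein gene Gbp2 had a log2 fold change of -0.50, with 89.6, 71.7 and 74.5 CPM in aPU.1KO mice.

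The composite PU.1 and IRF targets of myeloid cells had the lowest median of the pathway lists, -2.28 over 6 tested genes. Of these, 4 were lower at a nominal p under 0.05 and by DESeq2, beside 13.7% and 7.87% of all genes. The other 2 tested, Cst3 and Ctsc, had log2 fold changes of -0.06 and 0.33. The macrophage markers had a median of -2.01, and their part in this list was not tested. Among them were the cytokine Il1b (-2.24) and the scavenger receptor Cd68 (-2.54), and Cd68 is also 1 of the 13 macrophage markers. Of the 4 IRF4 targets of fat, 3 were tested by edgeR and had log2 fold changes above 0, where 7242 of all 13925 genes tested were above 0. The fourth, the uncoupling protein gene Ucp1, named here after its values were seen, was too low for the main edgeR fit to test. It measured 1.06, 0.219 and 0.635 CPM in controls and 0.305, 0.0452 and 0 CPM in aPU.1KO mice (DESeq2 adjusted p = 0.154). The lipase Pnpla2 measured 1251, 1279 and 1371 CPM in controls and 1838, 1974 and 1436 CPM in aPU.1KO mice, with a log2 fold change of 0.43 (edgeR adjusted p = 0.132, DESeq2 adjusted p = 0.0421). Lipe, hormone-sensitive lipase, had a log2 fold change of 0.29 (edgeR adjusted p = 0.172, DESeq2 adjusted p = 0.0469), and the coactivator Ppargc1a 0.42 with overlapping groups. Of the 3, 2 were nominally higher, beside 11.9% of all genes, and none was without control mouse 1 or without aPU.1KO mouse 2. By DESeq2, with no filter on low counts, and without control mouse 2, 1 gene of the list was nominally lower. Adipocyte markers were higher alongside, with log2 fold changes of 0.43 for Adipoq, 0.28 for Plin1, 0.30 for Cidec, 1.12 for Adrb3, 1.22 for Retn and 1.71 for Cfd, while Lep was at -0.77. DESeq2 called 6 of these 7 markers higher, and edgeR called 0 after adjustment and 5 at a nominal p under 0.05, beside 3.73%, 0.0575% and 11.9% of all genes higher. The part of adipocyte RNA in the lipase levels was not tested. Irf4 itself overlapped between the groups.

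**Figure D5:**
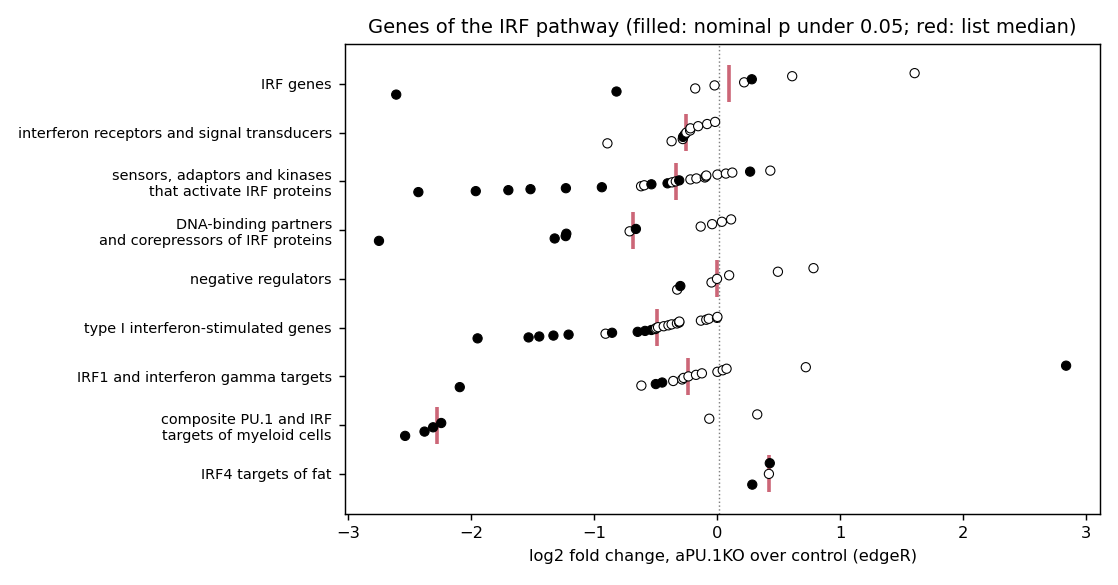
Log2 fold change, aPU.1KO over control, of each tested gene in the IRF family and in 8 lists of genes around it. A point is a gene, filled where the nominal edgeR p was under 0.05, red lines are list medians and the dotted line is the median of all genes tested, 0.014. The composite PU.1 and IRF targets have the lowest median, -2.28, and the single point near 2.84 is Cxcl10.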

How the data were processed

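The authors quantified reads per transcript with Salmon (version not given in the sources used here) against GRCm38 according to the submitters' processing notes, and deposited estimated counts summed to genes, which are whole numbers without normalization. Of 35122 genes, 35031 had a symbol in GENCODE M21 (GRCm38), from which gene coordinates were taken, and the others held 0.0367% of counts. The 2 genotypes were tested with the quasi-likelihood functions of edgeR 4.0.16 under R 4.3.3 (genes kept by filterByExpr, TMM scaling, glmQLFit and glmQLFTest, Benjamini-Hochberg over 13925 genes), a procedure first tested on simulated data. P-values measure the spread between mice. Log2 CPM for likeness used a prior count of 2 and genes with an average log2 CPM of at least 1. DESeq2 1.42.0, limma-voom (limma 3.58.1), other scalings and filters and leaving out each mouse were alternatives. Marker sums without their most abundant gene (Lyz2 for macrophages) were added after the data were seen. Named genes were the 8 members, Spi1, from each list the 3 with the smallest p, and the 5 genes most like Irf4, Irf5 and Irf8. A few genes that this rule names are left out of the text, and other genes (marker and list members, and genes that share exon bases) were named after their values were seen. Members and lists were chosen with earlier results of these data known. Promoters are from RefSeq, and figures were drawn with matplotlib 3.10.9. With 3 mice per group an exact two-sided permutation test cannot go below 0.1.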

Additional observations from a re-analysis of the deposited data

How the results depend on the processing

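Each IRF gene was refitted under 15 alternatives. Irf1, Irf3, Irf4, Irf5, Irf8 and Irf9 kept their direction in all 15, whereas with each mouse left out in turn Irf7 ran from -0.020 (without aPU.1KO mouse 2) to 0.36 and Irf2 from -0.091 to 0.017 (without aPU.1KO mouse 3). With DESeq2, Irf5 (-2.61) and Irf8 (-0.83) passed the threshold, so that 2 IRF genes were called lower, and the pathway lists had 20 genes lower and 2 higher, against 0 each by edgeR. Leaving out each mouse in turn, the log2 fold change ran from -3.02 to -2.28 for Irf5 and from -1.03 to -0.69 for Irf8, the number of IRF genes called lower from 0 to 2 and of pathway genes lower from 0 to 21. Among these fits both counts were above 0 only without control mouse 2. The cause was not tested. Per kilobase of the longest transcript instead of all exon bases, Irf8 ranked 3 in controls, Irf2 4, Irf5 5, Irf9 6 and Irf7 7, in place of 4, 5, 3, 7 and 6. Of 270 counts of list genes at an unadjusted p under 0.05, many of them 0, 44 moved by over 1.5 times, 34 of these with a mouse left out, among them the type I interferon-stimulated genes from 10 lower to 3 without control mouse 1. No paired analysis was made because the labels do not say which mice shared a litter, and any effect of litter was not modelled. Low counts limit Irf5 in aPU.1KO mice, where 28 counts were the fewest.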

Other observations

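Genes whose levels over the 6 libraries were most like those of Irf4 were further from it than the nearest genes were from Irf5 or Irf8. They were Trex1 (root mean square difference 0.194), Nfkbia (0.202), Mob3c (0.203), Myd88 (0.204) and Irgm1 (0.210). Nfkbia, which encodes an inhibitor of NF-kappaB, measured 84.0, 73.0 and 74.8 CPM in controls and 95.5, 223 and 49.0 CPM in aPU.1KO mice. Myd88, the adaptor through which Toll-like receptors reach IRF5 and IRF7, measured 25.5, 22.6 and 24.9 CPM in controls and 30.4, 48.0 and 20.1 CPM in aPU.1KO mice. Both stood highest in aPU.1KO mouse 2 and lowest in aPU.1KO mouse 3, as did Irf1, Irf4 and Cxcl10. Nfkbia and Myd88 were picked for likeness to Irf4 over these same libraries, so the order they share with Irf4 follows from the choice.

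Markers of other cells were summed in the same way. B cell markers summed to 3.06 to 3.81 CPM in controls and 1.72 to 4.03 CPM in aPU.1KO mice, and plasmacytoid dendritic cell markers to 1.07 to 1.27 CPM and 0.407 to 0.853 CPM, with Klk1 at or under 3 counts throughout. Neutrophil markers summed to 18.9 to 38.5 CPM in controls and 10.6 to 18.0 CPM in aPU.1KO mice, nearly all of it S100a8. The other 4 neutrophil markers summed to 1.36 to 3.53 CPM in controls and 0.678 to 1.52 CPM in aPU.1KO mice, with Ly6g and Retnlg at or under 3 counts throughout. T and NK cell markers summed to 3.28 to 5.79 CPM in controls and 1.73 to 2.03 CPM in aPU.1KO mice. Adipose progenitor markers summed to 346 to 506 CPM in controls and 164 to 290 CPM in aPU.1KO mice, endothelial markers to 449 to 656 CPM and 270 to 592 CPM, mesothelial markers to 2.54 to 13.2 CPM and 4.68 to 5.83 CPM, and hepatocyte markers to 37.2 to 62.6 CPM and 16.4 to 23.0 CPM. Most of the hepatocyte sum was Alb, and the other 6 markers summed to 11.2 to 16.5 CPM in controls and 0.356 to 1.13 CPM in aPU.1KO mice. Each of the 7 hepatocyte markers had an unadjusted edgeR p under 0.05 with the lower level in aPU.1KO mice, and 3 passed after adjustment, beside 13.7% and 0.18% of all genes. Their part in the IRF levels was not tested.

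Among the other genes that share exon bases with an IRF gene, Phrf1 shares 45 bases with Irf7, Bcl2l12 shares 88 with Irf3 and Gm17334 shares 135 with Irf1, all on the opposite strand, and Rnf31 shares 123 with Irf9 on the same strand. Phrf1, Bcl2l12 and Rnf31 had log2 fold changes of 0.04, 0.19 and -0.03, and their edgeR adjusted p values were 0.521 or more. Gm17334 had too few counts to be tested.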
